A study of Mus musculus with 36 samples.

Results

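Imprinted genes are expressed mainly from the copy inherited from a single parent, and 54 of them were followed through the germ line of mouse fetuses exposed to intrauterine hyperglycemia (IUHG). The set is a list of gene symbols from 22 imprinted domains, and a gene was kept if its mean level reached 1 TPM (a relative transcript abundance scaled for gene length and sequencing depth) in any of the 12 groups. By that rule 53 of the 54 genes were kept, of 57126 gene identifiers in the primordial germ cell (PGC) tables and 56262 in the gonad tables. The gene left out was *Kcnq1ot1*, whose highest group mean was 0.811 TPM. In the PGC groups 48 genes reached 1 TPM, and the 6 that stayed below it were *Rtl1*, *Zim1*, *Peg10*, *Magel2*, *Peg13* and *Kcnq1ot1*.

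The parental copies of an imprinted gene are told apart by DNA methylation laid down in the egg or the sperm at an imprinting control region (ICR), and somatic cells keep that mark for life. PGCs, the precursors of eggs and sperm, are the cells in which these marks are erased while they colonise the fetal gonad. New marks are written later, in males before birth and in females in the growing oocyte, so that an ICR is methylated either on the paternal or on the maternal copy. Of the 22 domains, 4 with 10 of the genes have an ICR methylated on the paternal copy (*H19*-*Igf2*, *Dlk1*-*Meg3*, *Zdbf2* and *Rasgrf1*).

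The transcriptomes of 12 groups were profiled in 36 bulk RNA-seq libraries, 3 per group. PGCs gave 30 libraries, from E12.5 fetuses (E, embryonic day) labelled as of undetermined sex and from females and males at E13.5 and E16.5, and whole female gonads at E13.5, labelled ovary, gave 6. All fetuses were labelled WT. PGCs had been sorted by flow cytometry for EGFP from an *Oct4-EGFP* transgene, which marks germ cells in the gonad. The mothers of the IUHG groups had been made diabetic with 120 mg/kg streptozotocin (STZ), a toxin of the insulin-secreting beta cell, at E3.5 and were included when blood glucose was over 14 mM at E6.5. Fetuses were pooled for a library, so the differences below rest on the spread between 3 pools. In such pooled samples, fewer cells of a type and less RNA per cell cannot be told apart.

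The PGC libraries held 3.25 to 8.30 Gb of aligned bases and the gonad libraries 2.55 to 3.25 Gb. Germ cell markers (6 genes) summed to 2615 to 9298 TPM in the PGC libraries and to 483 to 779 TPM in the gonads. Some libraries stood apart from their labels or their group. Control gonad replicate 1 carried 51.3 TPM of 4 Y-linked genes, which were listed at 0 in the other gonad libraries, and 393 TPM of Sertoli cell markers, against 46.1 and 46.9 TPM in the other control gonads. The E13.5 female IUHG PGCs had a median SD over genes of 0.452 on the log2 scale, and their replicate 3 lay farthest from the rest. The E16.5 female IUHG PGCs had a median SD of 0.290, and their least alike pair of replicates correlated at a Pearson's r of 0.902 over genes. The E13.5 male IUHG PGCs had 116 to 120 TPM of Y-linked transcripts against 151 to 183 TPM in their controls. In them *Stra8*, which starts meiosis in female germ cells, was at 134 to 175 TPM, against 8.73 to 13.0 TPM in male and 1718 to 1936 TPM in female controls. *Nanos2*, a regulator of the male germ cell fate, was at 2.78 to 5.45 TPM in the same IUHG libraries and 28.2 to 31.9 TPM in male controls. *Sycp3*, a component of the meiotic chromosome axis, was at 103 to 110.5 TPM in them, 115 to 124 TPM in male and 1257 to 1596 TPM in female controls. Whether the E13.5 male IUHG libraries hold cells of both sexes was not tested.

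A gene was called when limma, fitted to log2(TPM + 1) of all genes with a group mean of at least 1 TPM, gave an adjusted p under 0.01 in PGCs (0.05 in gonads) and a change of over 2-fold (at least 2-fold in gonads). Fold changes below are on that log2(TPM + 1) scale and understate the change of genes with low levels. Across the 6 IUHG comparisons the calls fell on 6 imprinted genes, *Phlda2*, *Slc22a18*, *Slc38a4*, *Plagl1*, *Nnat* and *Mest*, and 5 of the 7 calls were made in E13.5 male PGCs. The promoter sequence of 4 of them is shown to place these genes, since each has a single start in the RefSeq windows used (GRCm38.p6). The 150 bases run from position -250 to position -101 relative to that start, 5′ to 3′ on the gene's strand, with CpG dinucleotides, the sites of DNA methylation, in capitals. They lie at chr7:143502625-143502774 (minus strand) for *Phlda2*, chr7:143473539-143473688 (plus strand) for *Slc22a18*, chr10:13090582-13090731 (plus strand) for *Plagl1* and chr2:157559828-157559977 (plus strand) for *Nnat*.
Phlda2: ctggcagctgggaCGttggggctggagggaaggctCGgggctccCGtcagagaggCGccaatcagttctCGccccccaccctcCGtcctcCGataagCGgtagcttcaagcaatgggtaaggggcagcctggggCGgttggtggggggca
Slc22a18: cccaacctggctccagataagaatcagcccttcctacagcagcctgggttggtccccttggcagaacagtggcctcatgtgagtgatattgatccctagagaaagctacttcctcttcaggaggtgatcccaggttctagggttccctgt
Plagl1: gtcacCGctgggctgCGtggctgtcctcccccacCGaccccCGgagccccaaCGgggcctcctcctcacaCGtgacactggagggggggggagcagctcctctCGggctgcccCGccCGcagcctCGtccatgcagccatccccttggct
Nnat: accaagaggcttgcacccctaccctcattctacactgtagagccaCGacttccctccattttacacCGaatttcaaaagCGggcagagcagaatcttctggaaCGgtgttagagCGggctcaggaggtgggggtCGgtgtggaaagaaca

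In the mm39 positions of the PGC tables, *Phlda2* spans chr7:143055282-143056278, *Slc22a18* chr7:143027473-143053071, *Slc38a4* chr15:96892701-96953837, *Plagl1* chr10:12966532-13007438, *Nnat* chr2:157401998-157404442 and *Mest* chr6:30733505-30748464. The neighbours *Phlda2* and *Slc22a18*, which lie on opposite strands with 2210 bp between them, differed in CpG content. The stretch printed for *Phlda2* holds 9 CpGs and its full window of 300 bases holds 26, while *Slc22a18* has 0 and 2. The windows of *Plagl1* and *Nnat* hold 26 and 17 CpGs, and the median over 32851 RefSeq promoter windows of the same length was 7. The letters TGCCGC, a hexamer bound by the imprint-protecting factor ZFP57 when methylated, occur on either strand 0 times in the *Phlda2* and *Slc22a18* windows and 1 time each in those of *Plagl1* and *Nnat*. They occur in 20.9% of the windows of 43 imprinted genes (9 windows), 1 a gene, whose symbols matched the RefSeq table, and in 11.6% of all windows. The imprinted windows hold a median of 16 CpGs and 58.0% G and C, against 7 and 52.7% over all windows. The part of this base content in the share was not tested. The letters GCCNNNGGC, a core recognised by AP-2 factors, occur in the windows of *Phlda2* and *Plagl1*, in 20.9% of the imprinted windows and in 16.6% of all windows. The overlap of a TGCCGC with a GCCNNNGGC was not examined, a match is a description of the letters, and binding was not measured here. The gene model of *Phlda2* used for the gonad tables reaches to position 143503150, past the stretch shown. That of *Plagl1* begins at position 13060504, upstream of the stretch shown, so another start is annotated there.

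**Figure D1:**
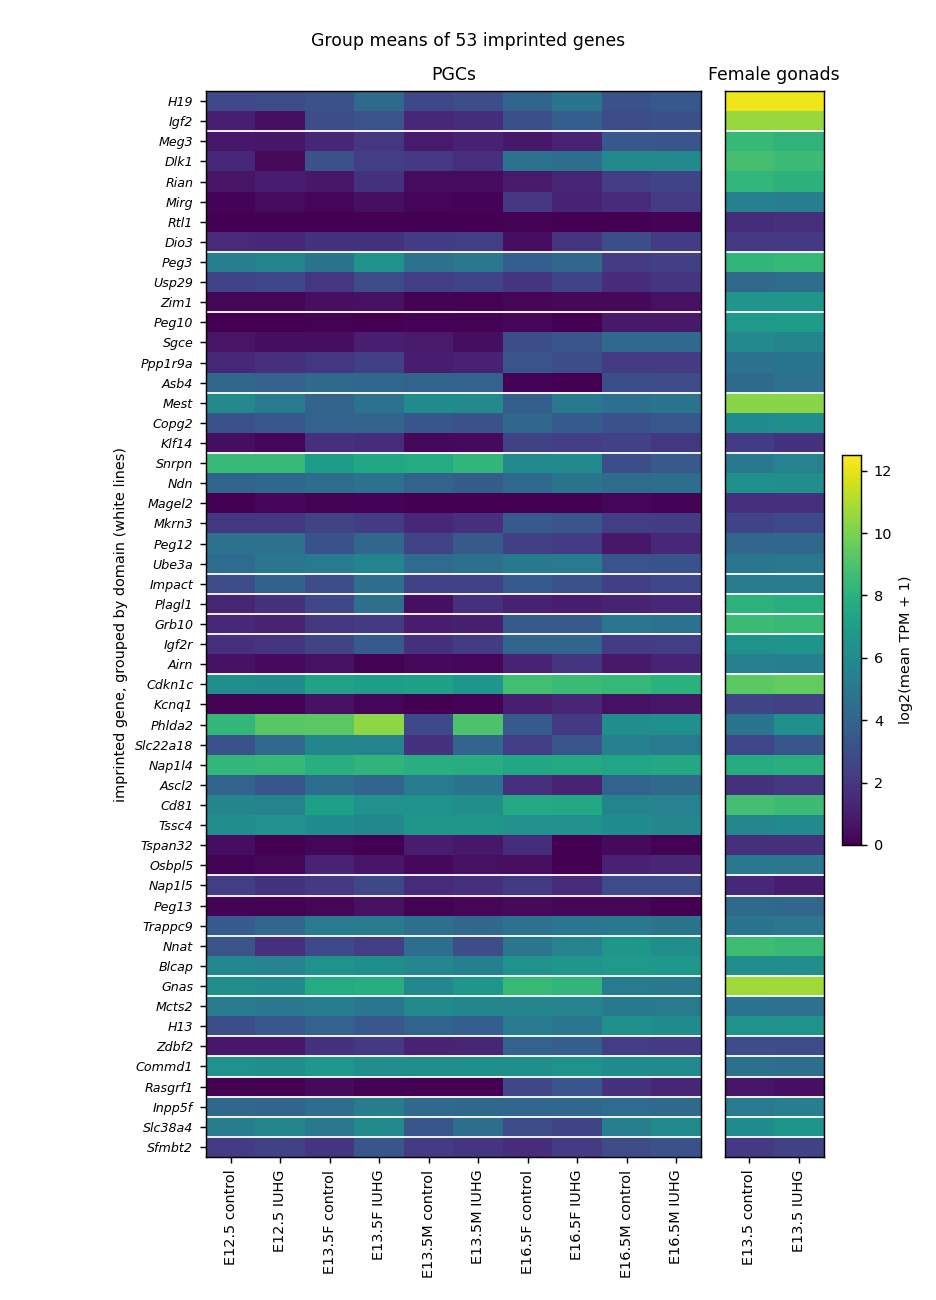
Colour gives log2(mean TPM + 1) of the 53 kept imprinted genes (rows, white lines between domains) in the 10 PGC groups and the 2 female gonad groups (columns, 3 libraries each). *H19*, *Igf2*, *Gnas* and *Mest* are brightest in gonads, with control means of 4660, 1507, 1662 and 1232 TPM, while *Phlda2* and *Snrpn* are brightest in PGCs.

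The imprinted genes covered a wide range of levels in PGCs, and a part of them was expressed at every stage. Of the 54 genes, 29 were at 1 TPM or more in every PGC group and 12 were at 10 TPM or more. The latter were *Mest*, *Ndn*, *Cdkn1c*, *Nap1l4*, *Cd81*, *Tssc4*, *Trappc9*, *Blcap*, *Gnas*, *Mcts2*, *Commd1* and *Inpp5f*. The steadiest was *Commd1*, a gene of copper handling, whose highest group mean was 1.66 times its lowest, between 61.1 and 101 TPM. *Nap1l4*, a histone chaperone, ranged over a factor of 2.01 from 164 TPM, and *Mcts2*, a retrogene inside *H13*, over a factor of 2.06 from 29.1 TPM. *Blcap*, *Inpp5f* and *Trappc9* ranged over factors of 2.57, 2.35 and 3.21. *Igf2r*, the receptor that clears IGF2, lay between 2.21 TPM in E12.5 controls and 16.0 TPM in E16.5 female controls. *Nap1l5* lay between 1.82 and 6.27 TPM and *Grb10*, an adaptor that restrains insulin and growth factor signalling, between 0.971 and 28.8 TPM.

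The gonads, which are mostly somatic cells, had a different order of levels. In 15 of the 53 genes the control gonad mean was at least 10 times the highest PGC group mean. *H19*, a maternally expressed noncoding RNA, was at 4660 ± 79.5 TPM (SD, n = 3) in control gonads and at most 28.5 TPM in a PGC group. *Igf2*, the fetal growth factor beside it, was at 1507 ± 88.7 TPM and at most 12.2 TPM. *Meg3*, the noncoding RNA of the *Dlk1* domain, was at 330.3 ± 36.9 TPM and at most 9.56 TPM. In 21 genes the control gonad mean was below the highest PGC group mean by any margin (a ratio of 0.990 for *Asb4*). This is a looser rule than the factor of 10, so the counts give no balance. Among the 21 were *Snrpn* (32.3 TPM in control gonads and up to 348 TPM in PGCs), *Ascl2* (2.49 and up to 33.2 TPM) and *Rasgrf1* (0.610 and up to 8.39 TPM). The 2 sets of tables were made separately with different pipelines, so this order was not tested. *Dlk1*, *Rian* and *Rtl1* each had 2 identifiers in the gonad tables, on chromosome 12 and on an unplaced scaffold. The chromosome copy was used, and with the copies summed *Dlk1* stood at 898 TPM rather than 442 TPM in control gonads, so its level and changes there are uncertain.

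*Phlda2* showed the largest change with IUHG of any imprinted gene tested in the 6 comparisons. It encodes a small pleckstrin homology-like protein that restrains placental growth and is expressed from the maternal copy in the *Kcnq1ot1* domain. In control PGCs it was at 307 ± 26.2 TPM at E12.5 (SD, n = 3 here and below) and at 619.8 ± 52.2 TPM in E13.5 females. It was at 5.76 ± 1.66 TPM in E13.5 males, at 10.9 ± 5.74 TPM in E16.5 females and at 72.4 ± 4.74 TPM in E16.5 males. The order of these control means was thus E13.5 female, E12.5, E16.5 male, E16.5 female and E13.5 male. The last pair in this order overlapped, with E16.5 females at 6.81 to 17.4 TPM and E13.5 males at 3.97 to 7.23 TPM, and the other neighbours did not.

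Under IUHG, E13.5 male PGCs did not have the low *Phlda2* level of their controls. The control libraries read 3.97, 6.08 and 7.23 TPM and the IUHG libraries 521, 486 and 510.3 TPM. The log2 fold change was 6.26 ± 0.15 (SE, adjusted p = 1.262e-08, limma with Benjamini-Hochberg adjustment). All IUHG libraries lay above all controls and near the level of E12.5 and E13.5 female PGCs. In E12.5 PGCs the controls were at 302, 335 and 284 TPM and the IUHG libraries at 609.6, 699 and 504 TPM, a log2 fold change of 0.97 ± 0.13 (adjusted p = 0.00782) that passed the p threshold and lay below 2-fold. In E13.5 female PGCs the controls were at 579.9, 679 and 600.5 TPM and the IUHG libraries at 1552, 1402 and 997.5 TPM, a log2 fold change of 1.06 ± 0.19 that did not pass the threshold of 0.01 (adjusted p = 0.0225). These 2 groups did not overlap with their controls either, but neither difference was a call. In E16.5 female PGCs *Phlda2* was at 17.4, 8.38 and 6.81 TPM in controls and 1.93, 7.01 and 1.25 TPM under IUHG, and in E16.5 males at 72.4 and 76.6 ± 3.16 TPM, without a call in either.

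**Figure D2:**
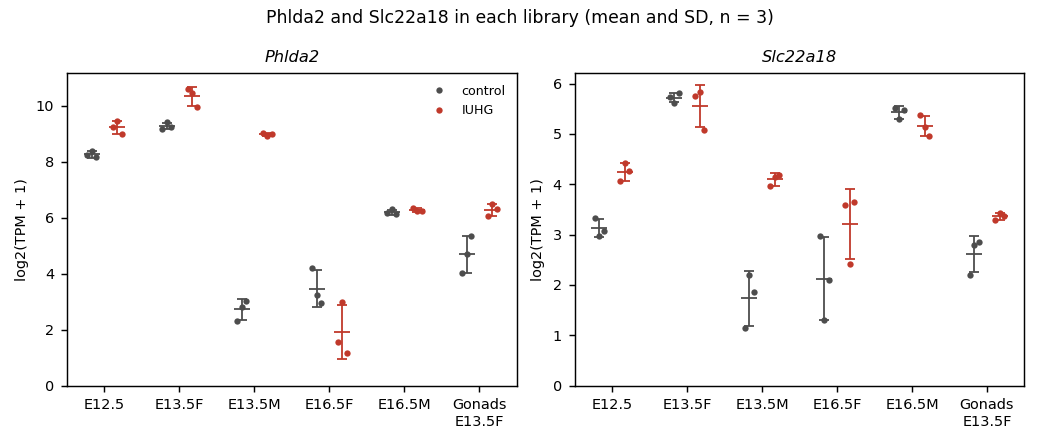
Each point is the log2(TPM + 1) of *Phlda2* (left) or *Slc22a18* (right) in a library of the 5 PGC pairs and the female gonads, control beside IUHG, with the group mean and SD (n = 3). The 3 E13.5 male IUHG libraries lie at 486 to 521 TPM of *Phlda2*, against 3.97 to 7.23 TPM in their controls.

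*Slc22a18*, the next gene of the domain and a transporter of organic cations, rose together with *Phlda2* under IUHG in E13.5 males. In E13.5 male PGCs the controls were at 1.20, 3.62 and 2.64 TPM and the IUHG libraries at 14.6, 16.6 and 17.3 TPM. The groups were clear of each other, with a log2 fold change of 2.36 ± 0.23 (adjusted p = 7.973e-05). In E12.5 PGCs the controls were at 9.01, 6.85 and 7.42 TPM and the IUHG libraries at 15.7, 20.3 and 18.2 TPM, a log2 fold change of 1.12 ± 0.16 just outside the threshold (adjusted p = 0.0110). In E13.5 female PGCs the controls, at 48.3 to 55.2 TPM, and the IUHG libraries, at 32.6 to 55.9 TPM, overlapped. The E16.5 groups overlapped as well, with means of 3.88 and 8.92 TPM in females and 42.1 and 34.9 TPM in males.

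The other genes of the *Kcnq1ot1* domain did not follow *Phlda2* in E13.5 males. *Cdkn1c*, an inhibitor of cyclin-dependent kinases that is expressed from the maternal copy, fell from 142.5 ± 9.38 TPM to 94.5 ± 2.70 TPM (log2 fold change -0.59 ± 0.06, adjusted p = 9.203e-05), a change of less than 2-fold. *Cd81*, a tetraspanin, fell by 0.27 on the log2 scale (adjusted p = 0.00997). *Ascl2*, a transcription factor of the trophoblast, was at 33.2 ± 2.06 TPM in controls and 26.0 ± 3.07 TPM under IUHG and did not pass the threshold. The noncoding RNA of the domain, *Kcnq1ot1*, was not tested at means of 0.147 and 0.254 TPM. Of the 7 genes of the domain that were tested in this comparison, 2 were called higher and 0 lower, where 3.92% of all tested genes were called in either direction, and 4 had an adjusted p under 0.01, where 18.5% of all genes did.

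The question of how IUHG bears on imprinted genes was asked at each stage, and E13.5 male PGCs answered with the most calls. Their replicates were the closest of the PGC groups, with a median SD over genes of 0.116 in controls and 0.106 under IUHG (log2 scale). The part of this small spread in the count was not tested. Of 39 imprinted genes tested there, 4 were called higher (*Plagl1* among them, which entered the test only through its IUHG mean) and 1 lower, with 3.92% of all tested genes called in the same comparison (2.03% higher and 1.89% lower). With no requirement on the size of the change, 12 genes had an adjusted p under 0.01, 8 of them higher and 4 lower, against 18.5% of all genes. The 3 control and 3 IUHG libraries did not overlap in 24 of the 39 genes, 10 higher and 14 lower, where 47.1% of all genes did not overlap (21.8% higher and 25.4% lower). The median log2 fold change of the 39 was 0.05, beside -0.02 over all genes, so the genes did not shift together. Y-linked, *Stra8* and *Nanos2* levels moved with this comparison as given above, and Leydig cell markers (5 genes) summed to 32.8 to 49.1 TPM in controls and 0.857 to 4.93 TPM under IUHG. Their part in the results was not tested.

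*Slc38a4*, an amino acid transporter expressed from the paternal copy, was the next clearest in E13.5 males. Its control libraries read 9.15, 9.20 and 9.14 TPM and its IUHG libraries 21.1, 21.1 and 22.5 TPM. The replicates within a group were nearly equal, and the log2 fold change was 1.15 ± 0.08 (adjusted p = 9.147e-06). *Slc38a4* was higher under IUHG in E16.5 males too, at 40.9, 41.2 and 37.3 TPM in controls and 65.2, 58.3 and 56.4 TPM under IUHG, but at 0.58 ± 0.09 on the log2 scale (adjusted p = 0.0108) this was no call. In E13.5 females its means were 30.8 TPM in controls and 61.6 TPM under IUHG, without a call, and in E16.5 females 6.34 and 5.05 TPM.

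*Plagl1*, a zinc finger regulator of a network of imprinted growth genes, was low in E13.5 male controls and higher under IUHG. The control libraries were at 0.364, 0.294 and 0.606 TPM and the IUHG libraries at 2.07, 1.92 and 3.16 TPM. No library of a group reached the other, and the log2 fold change was 1.24 ± 0.19 (adjusted p = 0.0011). At such low levels the pseudocount and the unit weigh on the value, which ranged from 0.85 to 2.26 over the alternatives, and *Plagl1* was not called on FPKM, without the filter on low values or with all 30 PGC libraries in a single fit (adjusted p up to 0.0240). With a control mean of 0.421 TPM it was tested only because its IUHG mean of 2.38 TPM passed the filter.

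*Nnat* was the only imprinted gene called lower in E13.5 males. It encodes neuronatin, a small membrane protein of the developing nervous system, and lies within the intron of *Blcap*. The control libraries were at 26.8, 20.8 and 18.9 TPM and the IUHG libraries at 4.55, 7.27 and 8.69 TPM. All IUHG libraries lay below the lowest control, a log2 fold change of -1.59 ± 0.20 (adjusted p = 0.000319), which was no call without the filter on low values (adjusted p = 0.0116). *Nnat* was lower in E12.5 IUHG PGCs too, at 9.76, 3.22 and 11.1 TPM in controls and 1.82, 2.01 and 2.66 TPM under IUHG, without passing the threshold (-1.38 ± 0.36, adjusted p = 0.104). In E16.5 males its means were 96.1 and 73.8 TPM (-0.37 ± 0.08, adjusted p = 0.0370), and in E16.5 females 29.2 and 45.4 TPM. Reads of *Nnat* and *Blcap*, which overlap on opposite strands over 2445 bp, cannot be told apart where counting did not use strand. *Blcap* fell by 0.35 on the log2 scale in E13.5 males (adjusted p = 0.00321).

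Changes of less than 2-fold in E13.5 males fell on genes of several domains. *Gnas*, which encodes the stimulatory G protein alpha subunit, rose from 55.8 ± 0.380 to 96.4 ± 5.18 TPM (log2 fold change 0.77 ± 0.06, adjusted p = 1.355e-05). *Snrpn*, a spliceosome component of the Prader-Willi region, rose from 204 ± 4.07 to 302 ± 5.55 TPM (0.57 ± 0.04, adjusted p = 1.406e-05). *Peg12*, from the same region, rose by 0.94 (adjusted p = 0.000207) and *Peg3*, a zinc finger protein, rose by 0.33 (adjusted p = 0.00538), both on the log2 scale.

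**Figure D3:**
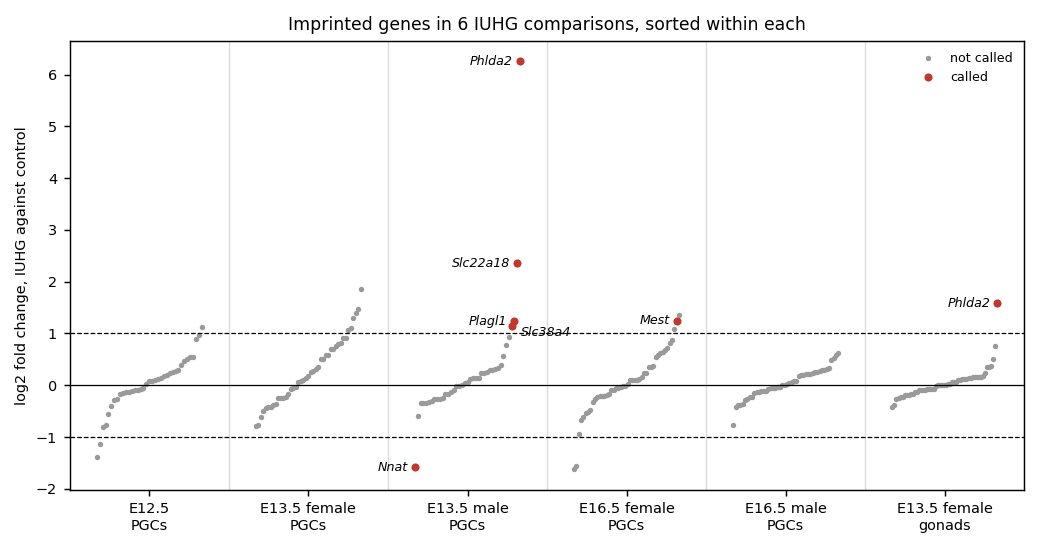
Each point is the log2 fold change of an imprinted gene, IUHG against control, sorted within each of 6 comparisons, with dashed lines at a 2-fold change and called genes in red. The 5 calls in E13.5 male PGCs range from -1.59 (*Nnat*) to 6.26 (*Phlda2*), and *Mest* in E16.5 female PGCs and *Phlda2* in gonads are the other calls.

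In E12.5 PGCs no imprinted gene of 37 tested was called, where 0.247% of all genes were. With no limit on the fold, *Phlda2* alone had an adjusted p under 0.01, against 0.341% of all genes, and 12 of the 37 had an unadjusted p under 0.05, against 15.7% of all genes. The libraries did not overlap in 16 genes, 10 higher and 6 lower (22.4% of all genes, 13.3% higher and 9.12% lower). *Impact*, an inhibitor of the GCN2 stress kinase, was at 6.22, 6.69 and 7.73 TPM in controls and 14.0, 14.5 and 12.3 TPM under IUHG (0.89 ± 0.15, adjusted p = 0.0244). *Mest*, a hydrolase-like protein of the mesoderm, was at 64.2, 55.5 and 54.8 TPM in controls and 27.0, 30.6 and 42.5 TPM under IUHG (-0.81 ± 0.16, adjusted p = 0.0439). *Dlk1*, a Notch-like ligand, was at 1.57, 1.48 and 2.22 TPM in controls and 0.0810, 0.304 and 0.386 TPM under IUHG (-1.13 ± 0.24, adjusted p = 0.0514). None of these 3 passed the threshold, although no library of a group reached the other. *Dlk1* was tested only through its control mean, its IUHG mean being 0.257 TPM. Without IUHG replicate 3, *Phlda2* became a call. Interstitial cell markers (6 genes) summed to 3.60 to 4.68 TPM in the controls and 0.746 to 1.66 TPM under IUHG, *Dlk1* was at 442 TPM in control gonads, and the part of such cells was not tested. The E12.5 labels give the sex as undetermined, and Y-linked transcripts summed to 194 to 212 TPM in the control and 130 to 154 TPM in the IUHG libraries, so the share of male cells and the treatment cannot be told apart here.

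In E13.5 female PGCs no imprinted gene of 43 tested was called, where 0.514% of all genes were, and 12 had an unadjusted p under 0.05, against 23.4% of all genes. The libraries did not overlap in 18 genes, 13 higher and 5 lower (33.0% of all genes, 19.8% higher and 13.2% lower), and the medians of the log2 fold change were 0.17 over the imprinted genes and 0.14 over all genes. *Plagl1* stood at 5.41, 3.70 and 7.05 TPM in controls and 16.7, 16.4 and 36.7 TPM under IUHG (1.86 ± 0.36, adjusted p = 0.0310). *Peg3* stood at 26.0, 22.8 and 32.8 TPM in controls and 56.9, 55.5 and 141 TPM under IUHG (1.48 ± 0.35, adjusted p = 0.0569). The level of the IUHG replicate 3 was well above that of the other replicates in both genes. The same library was highest for *Sfmbt2*, a Polycomb protein, which was at 3.02, 2.01 and 2.90 TPM in controls and 9.06, 4.96 and 13.2 TPM under IUHG (1.39 ± 0.37, adjusted p = 0.0771). It was highest for *Impact* too, at 5.34, 6.45 and 8.07 TPM and 11.5, 11.5 and 39.7 TPM (1.30 ± 0.45, adjusted p = 0.136). *H19* was at 6.02, 8.80 and 8.04 TPM in controls and 28.1, 10.2 and 18.4 TPM under IUHG (1.11 ± 0.36, adjusted p = 0.119).

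Leaving out IUHG replicate 3 changed the count for E13.5 female PGCs from 0 to 4 calls, with *Phlda2* at 1.25, *Plagl1* at 1.49 and *Peg3* at 1.04 on the log2 scale called higher and *Cd81* the other call. The share of all genes called without that library was not counted, so whether the 4 calls exceed it is not known. *Cd81* was at 131 ± 7.49 TPM in controls and 80.0 ± 32.6 TPM under IUHG over all 3 libraries. *Stra8* was at 1718 to 1936 TPM in the controls of this comparison and at 326 to 491.5 TPM under IUHG, and its part in these values was not tested.

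In E16.5 female PGCs *Mest* was the only imprinted gene called of 46 tested, where 0.736% of all genes were called. Its control libraries were at 15.5, 11.9 and 11.7 TPM and its IUHG libraries at 32.0, 30.2 and 33.4 TPM. The IUHG libraries were alike and all above the controls, with a log2 fold change of 1.24 ± 0.19 (adjusted p = 0.0083). The difference at E12.5 had the opposite sign, without a call. The adjusted p rose above the threshold of 0.01 without any single library (up to 0.0716), so the call rests on all 6. *Mest* is high in gonads, and markers of interstitial cells (6 genes, such as collagens) summed to 13.4, 13.7 and 33.9 TPM in these controls and to 43.4 to 73.2 TPM under IUHG, beside 1342 to 1894 TPM in the gonads. Their part in the result was not tested, nor was that of reads shared with *Copg2*, which overlaps *Mest* on the opposite strand.

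*H19*, also high in gonads, was at 12.2, 18.4 and 17.5 TPM in E16.5 female controls and 29.0, 26.5 and 30.0 TPM under IUHG (0.81 ± 0.20, adjusted p = 0.0509). *Tspan32*, a tetraspanin of the *Kcnq1ot1* domain, was at 1.79 to 2.36 TPM in controls and listed at 0 in all 3 IUHG libraries (adjusted p = 0.0430). It was tested only through its control level. Of the 46 genes, 7 had an unadjusted p under 0.05, against 22.8% of all genes, and 12 did not overlap, 8 higher and 4 lower (28.9% of all genes, 14.9% higher and 14.1% lower). The median log2 fold change was 0.01, beside 0.04 over all genes.

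In E16.5 male PGCs no imprinted gene of 46 tested was called, where 0.201% of all genes were. An unadjusted p under 0.05 was given to 12 of them, against 23.9% of all genes, and 15 did not overlap, 8 higher and 7 lower (29.8% of all genes, 17.8% higher and 12.0% lower). *Cdkn1c* came nearest, at 314, 313 and 338 TPM in controls and 248, 248 and 248 TPM under IUHG (-0.37 ± 0.05, adjusted p = 0.0106). *Dio3*, a deiodinase that inactivates thyroid hormone, was at 8.13, 6.30 and 6.45 TPM in controls and 3.42, 3.72 and 3.82 TPM under IUHG (-0.77 ± 0.15, adjusted p = 0.0266). Markers of Leydig and Sertoli cells summed to 42.4 to 188 and 105 to 134 TPM in these controls and to 12.2 to 33.9 and 41.6 to 67.8 TPM under IUHG, and their part in the values was not tested.

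**Figure D4:**
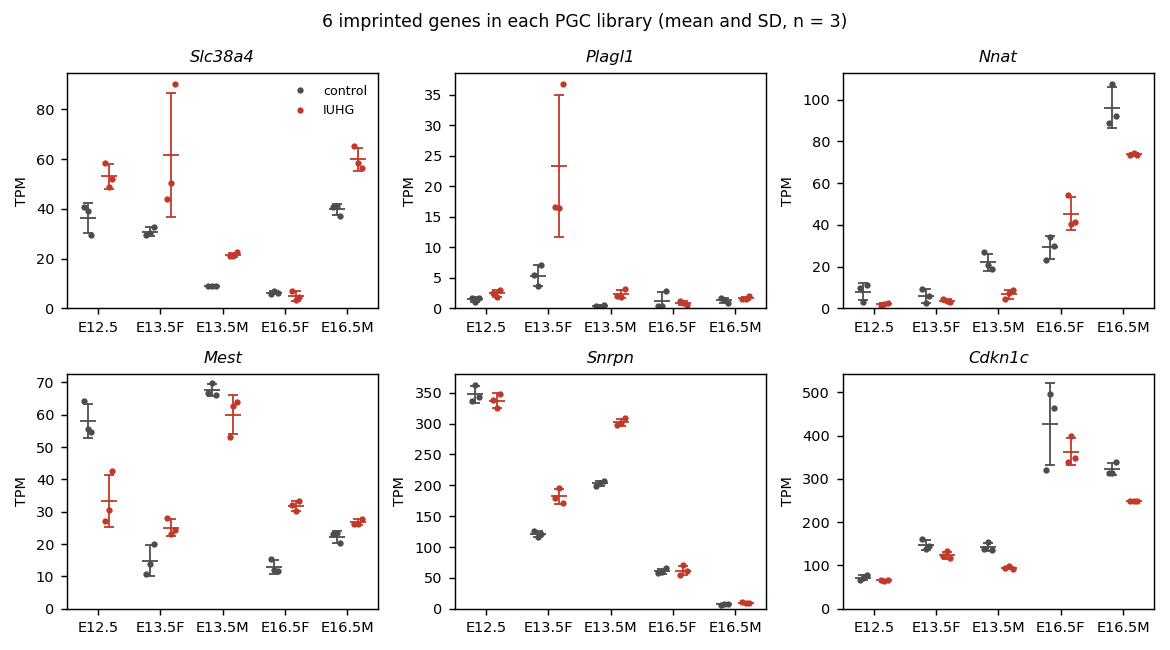
Points give the TPM of *Slc38a4*, *Plagl1*, *Nnat*, *Mest*, *Snrpn* and *Cdkn1c* in each PGC library, control beside IUHG at 5 stages and sexes, with the group mean and SD (n = 3). *Mest* is lower under IUHG at E12.5 (58.2 and 33.4 TPM) and higher at E16.5 in females (13.0 and 31.9 TPM), while *Snrpn* declines with stage in either condition.

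In E13.5 female gonads *Phlda2* was the only imprinted gene called of 52 tested, where 0.612% of all genes were called. Its control libraries were at 15.4, 25.2 and 39.9 TPM and its IUHG libraries at 65.3, 89.1 and 78.1 TPM. The groups did not overlap, and the log2 fold change was 1.58 ± 0.28 (adjusted p = 0.0325). Germ cell markers summed to 483 to 563 TPM in these controls and 632 to 779 TPM under IUHG. Interstitial cell markers summed to 1810 to 1894 TPM in the controls and 1342 to 1476 TPM under IUHG, and blood cell markers to 13710 to 16980 TPM and 10560 to 12020 TPM. The part of these cells in the result was not tested. Without control replicate 1, the library with Y-linked and Sertoli cell transcripts, the value was 1.25 and still a call, which was lost without control replicate 2 or any IUHG library. *Slc38a4* rose by 0.36 on the log2 scale (adjusted p = 0.0401), below 2-fold. *Slc22a18* was at 3.58, 5.94 and 6.20 TPM in controls and 8.76, 9.78 and 9.40 TPM under IUHG (0.75 ± 0.18, adjusted p = 0.0665). The libraries did not overlap in 13 of the 52 genes, 9 higher and 4 lower (25.8% of all genes, 14.5% higher and 11.3% lower), 16 had an unadjusted p under 0.05 (19.9% of all genes), and the medians over the imprinted genes and over all genes were both 0.01.

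Whether an IUHG effect differed between sexes or stages was tested as an interaction. The effect on *Phlda2* was 5.19 ± 0.27 larger on the log2 scale in E13.5 males than in E13.5 females (adjusted p = 2.759e-07), and that on *Slc22a18* 2.53 ± 0.36 larger (adjusted p = 0.00117). These were 2 of 43 genes tested, where 3.2% of all genes differed. In males the effect at E16.5 differed from that at E13.5 in 7 of 46 genes, 2 higher and 5 lower, where 8.29% of all genes differed (4.94% higher and 3.35% lower). The difference was -6.18 ± 0.19 for *Phlda2* (adjusted p = 1.016e-09) and -2.63 ± 0.29 for *Slc22a18* (adjusted p = 9.402e-05). It was -0.83 for *Gnas*, -0.57 for *Slc38a4*, -0.91 for *Dio3*, 1.22 for *Nnat* and 0.32 for *Nap1l4*. With median-of-ratios scaling the count was 0 higher and 6 lower, *Nnat* and *Nap1l4* being no longer called. Of 19 alternatives, the call was lost in 15 for *Nap1l4*, 11 for *Nnat*, 10 for *Dio3* and 2 for *Slc38a4*, with adjusted p up to 0.582, 0.164, 0.592 and 0.335, and leaving out a library gave 3 to 6 genes. *Phlda2*, *Slc22a18* and *Gnas* kept the call in all 19. No imprinted gene passed between the sexes at E16.5 (48 tested, 1.18% of all genes called, 15 at an unadjusted p under 0.05 with 19.4% of all genes) or between the stages in females (48 tested, 1.93% of all genes called, 12 at an unadjusted p under 0.05 with 22.5% of all genes). *Mest* came nearest between the sexes (-0.98 ± 0.18, adjusted p = 0.0129) and *Phlda2* between the stages (-2.62 ± 0.56, adjusted p = 0.0135).

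The domains with a paternally methylated ICR held none of these calls of IUHG against control. Of their 10 genes, 9 were tested in gonads, 4 at E12.5, 7 and 6 in E13.5 females and males, and 9 in each E16.5 sex. Between 0.201% and 3.92% of all tested genes were called in these comparisons, so a count of 0 among so few is near the background. In E16.5 females 4 of the 9 genes did not overlap, 3 higher and 1 lower (28.9% of all genes), *Rasgrf1* among them at 1.97 to 7.13 TPM in controls and 7.38 to 10.3 TPM under IUHG, without a call. In E16.5 males, the stage at which the paternal marks are being written, *H19* was at 7.78 ± 1.37 TPM in controls and 9.91 ± 2.44 TPM under IUHG, *Meg3* at 9.55 ± 1.52 and 8.69 ± 1.54 TPM, *Dlk1* at 61.2 ± 8.37 and 60.0 ± 8.78 TPM, and *Zdbf2*, a large germline-imprinted zinc finger gene, at 3.77 ± 0.566 and 3.70 ± 0.822 TPM. These differences, of 0.30, -0.13, -0.03 and -0.03 on the log2 scale, were smaller than or near the spread between replicates. In E13.5 males the same genes differed by 0.30, 0.25, -0.34 and 0.05. *Dio3*, also of the *Dlk1*-*Meg3* domain, was lower under IUHG in E16.5 males without overlap, as given above, and was no call. Its effect differed between the stages in males by the interaction test given above. Of the genes of domains with a maternally methylated ICR, which made up most of those tested, 1 of 42 was called in gonads (0.612% of all genes), 5 of 32 in E13.5 males (3.92%) and 1 of 36 in E16.5 females (0.736%).

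**Figure D5:**
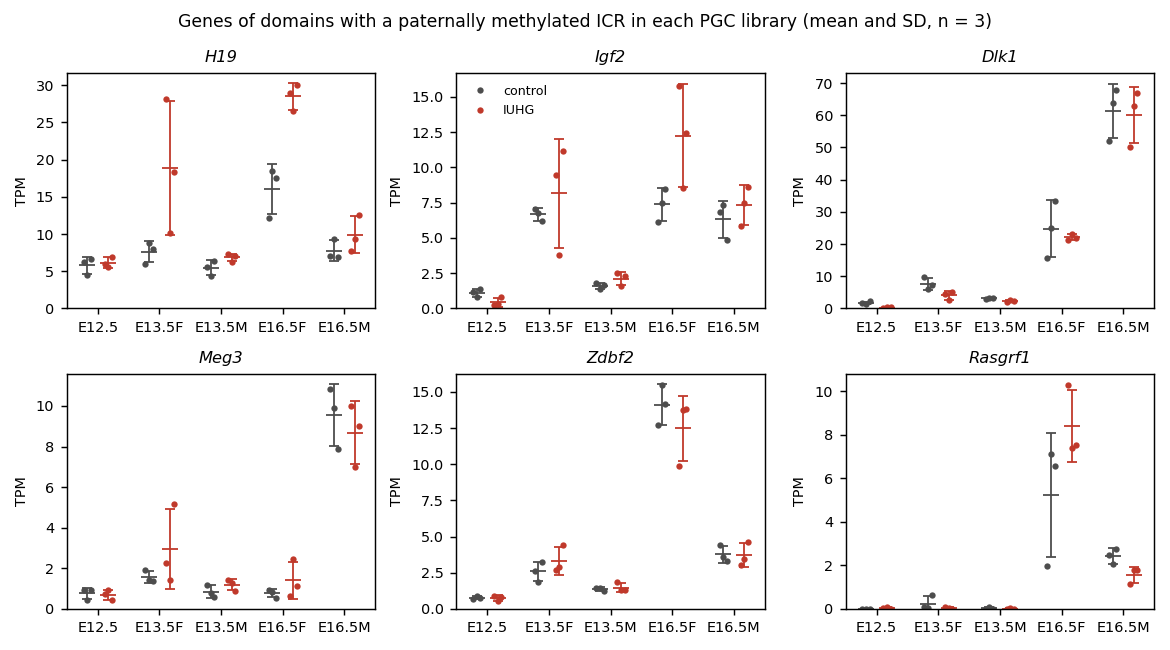
Points give the TPM of *H19*, *Igf2*, *Dlk1*, *Meg3*, *Zdbf2* and *Rasgrf1* in each PGC library, control beside IUHG, with the group mean and SD (n = 3). *Dlk1* and *Meg3* are highest in E16.5 males (control means 61.2 and 9.55 TPM), *Zdbf2* and *Rasgrf1* in E16.5 females (14.1 and 5.22 TPM). The IUHG points of *Rasgrf1* in E16.5 females, at 7.38 to 10.3 TPM, lie above the controls, at 1.97 to 7.13 TPM, without a call.

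Stage and sex gave more calls than IUHG did, among the imprinted genes as over all genes. Between E13.5 and E16.5 in control males, 18 of 45 genes rose and 6 fell, where 51.0% of all genes were called (38.3% higher and 12.7% lower). In control females 11 of 47 rose and 7 fell, where 28.2% of all genes were called (18.4% higher and 9.78% lower). The medians of the log2 fold change were 0.70 in males and 0.12 in females, beside 0.62 and 0.31 over all genes. The scaling bears on this balance, since median-of-ratios scaling lowered the median over all genes in males from 0.62 to 0.26 and gave 15 rises and 10 falls. A gene below 1 TPM in one of the groups was tested only through the other, which held for 9 of the 24 calls in males (8 rises) and 5 of the 18 in females (4 rises).

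In males the largest rises were those of *Grb10* (0.971 to 28.8 TPM, 3.93 ± 0.15 on the log2 scale), *Dlk1* (3.15 to 61.2 TPM, 3.90 ± 0.12) and *Slc22a18* (2.49 to 42.1 TPM, 3.69 ± 0.24). *Snrpn* fell the most, from 204 to 6.98 TPM (-4.69 ± 0.11), followed by *Peg3* from 23.9 to 3.63 TPM (-2.43 ± 0.11) and *Peg12* from 4.85 to 0.723 TPM (-1.78 ± 0.17). *Phlda2* rose by 3.47 and *Meg3* by 2.51. Of the genes of domains with a paternally methylated ICR, 7 of 9 rose and 0 fell, where 38.3% of all genes rose and 12.7% fell. For 4 of the 7, *Meg3*, *Rian*, *Mirg* and *Rasgrf1*, the E13.5 mean was below 1 TPM, so the count is a description. Interstitial, Leydig and blood cell markers summed to means of 5.81, 43.25 and 26.8 TPM in E13.5 male controls. At E16.5 these means were 23.7, 110.7 and 379 TPM. The sum of endothelial cell markers (6 genes) fell from 50.7 to 29.5 TPM. At E13.5, 5 of these 6 genes had means below 1 TPM, and at E16.5 only 1 did. The E13.5 sum thus rests almost wholly on a single gene, and its fall does not describe the others. Control gonads held *Grb10* at 373, *Dlk1* at 442 and *Meg3* at 330 TPM, and the part of such cells in these rises was not tested.

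In females *Phlda2* fell the most, from 619.8 to 10.9 TPM (-5.81 ± 0.27), opposite to its rise in males. *Asb4*, a ubiquitin ligase subunit, fell from 18.9 to 0.0737 TPM (-4.19 ± 0.28), being listed at 0 in 2 of the 3 later libraries. *Slc22a18* fell from 51.9 to 3.88 TPM (-3.60 ± 0.35). The largest rises were *Sgce*, a sarcoglycan (0.374 to 7.10 TPM, 2.58 ± 0.31), *Nnat* (5.80 to 29.2 TPM, 2.27 ± 0.36) and *Rasgrf1*, a Ras exchange factor (0.241 to 5.22 TPM, 2.22 ± 0.43). Among genes of domains with a paternally methylated ICR 4 of 8 rose, *Zdbf2* among them (2.09 ± 0.24), and 0 fell, where 18.4% of all genes rose and 9.78% fell. *Mirg* and *Rasgrf1*, 2 of the 4, were below 1 TPM at E13.5. Interstitial cell markers summed to means of 8.61 TPM at E13.5 and 20.3 TPM at E16.5 in control females. Blood cell markers had means of 33.45 and 16.6 TPM, with libraries at 0.267 to 63.3 TPM and 5.71 to 37.9 TPM, which overlapped. In the endothelial sum, which fell from 63.4 to 21.8 TPM, 5 of 6 genes had means below 1 TPM at E13.5 and 4 at E16.5. The part of such cells in these changes was not tested.

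Control males and females differed already at E13.5, where 2 of 41 genes were higher in males and 11 lower, with 29.8% of all genes called (9.35% higher and 20.4% lower). *Phlda2* (-6.55 ± 0.17), *Slc22a18* (-3.99 ± 0.24) and *Plagl1* (-2.14 ± 0.23) were the genes most below their female levels, and *Mest* (2.15 ± 0.19) and *Nnat* (1.89 ± 0.34) were the genes above them. Median-of-ratios scaling gave 3 higher and 7 lower. Of the 13 calls, 4 were of genes below 1 TPM in male controls, tested only through the female level. At E16.5, 14 of 48 genes were higher in males and 11 lower, with 50.9% of all genes called (28.0% higher and 22.9% lower). *Gnas* (33.3 TPM in males and 345 TPM in females, -3.33 ± 0.13), *Snrpn* (6.98 and 60.8 TPM, -2.96 ± 0.15) and *Cd81* (48.3 and 199 TPM, -2.01 ± 0.11) were lowest relative to females. *Slc22a18* (42.1 and 3.88 TPM, 3.30 ± 0.38), *Asb4* (6.98 and 0.0737 TPM, 2.88 ± 0.24) and *Phlda2* (72.4 and 10.9 TPM, 2.73 ± 0.30) were the highest. Of the 25 calls, 6 were of genes below 1 TPM in one of the sexes. *Phlda2* and *Slc22a18* were thus lower in males at E13.5 and higher in males at E16.5. The comparisons between stages, between sexes and with IUHG share control libraries, so their values are set side by side without a test of their likeness.

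The factors that erase, protect and write imprints were measured in the same libraries. Of 16 listed, 11 to 16 were tested in each comparison of IUHG with control, and only *Dppa3* was called, in E16.5 females (1 of 13, where 0.736% of all genes were called). *Dppa3*, which shields the maternal genome from demethylation after fertilisation and is high in PGCs, was there at 253, 227 and 184 TPM in controls and 14.5, 2.53 and 9.81 TPM under IUHG. The groups were far apart, with a log2 fold change of -4.72 (adjusted p = 0.00109). Its effect differed between the sexes at E16.5 (4.85 ± 0.56, adjusted p = 0.000866) and between the stages in females (-4.99 ± 0.54, adjusted p = 8.059e-05). Interactions passed for 3 further factors, *Dnmt3a* between the sexes at E13.5 (-1.42 ± 0.28, adjusted p = 0.00828), and *Dnmt3b* (0.58 ± 0.13, adjusted p = 0.00768) and *Dnmt3l* (0.72 ± 0.11, adjusted p = 0.000836) between the stages in males. Over all genes 3.2% passed between the sexes at E13.5 and 8.29% between the stages in males. The value of *Dnmt3l* rests on levels below 1 TPM at E13.5, 0.794 TPM in control and 0.107 TPM in IUHG males. At E16.5 it was at 714 and 724 TPM. With stage in control males 6 of 16 rose and 5 fell, where 38.3% of all genes rose and 12.7% fell. For 5 of these 11 calls, *Dnmt3c* and *Dnmt3l* among them, a stage was below 1 TPM. *Dnmt3l*, the cofactor of de novo methylation, rose from 0.794 to 714 TPM, *Dnmt3a* from 38.7 to 299 TPM and the rodent-specific *Dnmt3c* from 0.287 to 27.3 TPM. *Uhrf1*, which recruits the maintenance methyltransferase, fell from 47.9 to 10.5 TPM. In control females 3 of 14 rose and 3 fell, where 18.4% of all genes rose and 9.78% fell. For 2 of these 6 calls, *Tet1* and *Ctcfl*, a stage was below 1 TPM.

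A further 23 imprinted genes outside the list of 54 held calls with IUHG in E13.5 male PGCs only among the 6 comparisons, 1 higher and 1 lower of 12 tested, where 3.92% of all genes were called. *Ins2*, an insulin gene beside *Igf2*, rose from 0.331 to 10.1 TPM (3.09 ± 0.20, adjusted p = 5.56e-06), having been tested only through its IUHG level, and *Th*, the tyrosine hydroxylase gene next to it, fell from 6.23 to 1.39 TPM (-1.60 ± 0.13, adjusted p = 2.28e-05). With stage, 13 of 19 of these genes rose and 3 fell in control males, where 38.3% of all genes rose and 12.7% fell, and 9 of these 16 calls were of genes below 1 TPM at a stage. In control females 3 of 15 rose and 3 fell, where 18.4% and 9.78% of all genes did. Of these 6 calls, 3 (*Ano1*, *Ins2* and *Atp10a*) were of genes below 1 TPM at a stage.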

How the data were processed

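Bulk RNA-seq of sorted PGCs and of whole female gonads was analysed from the StringTie gene tables that the authors deposited for each library, with a TPM, an FPKM and a coverage value for every gene. According to the study's methods, PGC reads were trimmed and aligned to mm39 with STAR, and gonad reads were aligned with HISAT2 and quantified with StringTie. The build is named differently between sources for the gonads, whose gene positions matched GRCm38. How strand was treated is not given in the sources used here. TPM values keep no read depth, so the counting error of a value is not known. The deposited coverage was used only to sum aligned bases per library.

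Groups and replicate numbers came from the sample labels. The labels call the replicates biological, but nothing says that they came from separate litters. The p-values thus measure the spread between these libraries, which may not be that between litters. Genes with a mean of at least 1 TPM in a compared group were fitted on log2(TPM + 1) with limma 3.58.1 in R 4.3.3 and Benjamini-Hochberg adjustment over all tested genes, after the procedure had been tested on simulated data. Calls needed a fold change over 2 (at least 2 in gonads) with an adjusted p under 0.01 in PGCs or 0.05 in gonads, and interactions an adjusted p under 0.01 with no limit on the fold. A comparison between groups used only its own libraries, and an interaction the 4 groups it involves. Gonads and PGCs were not tested against each other.

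Named genes were *H19*, *Zdbf2*, *Meg3* and *Dlk1*, every gene called with IUHG, up to 6 genes per IUHG comparison with at least a 2-fold change and no overlap, the 3 largest called rises and falls of each control comparison, and the highest gene of each domain. Others are given where a count or a domain turns on them. The genes, lists and tests were chosen with earlier results of these data known, and *Stra8*, *Sycp3* and *Nanos2* were looked up after their values had been seen. Results were recomputed, where the gene was tested and the fit could be made, on FPKM, with a pseudocount of 0.1, without the filter on low values, with median-of-ratios scaling, with a replicate block, on the unadjusted p, from all 30 PGC libraries in a single fit (PGC results only), and without each library in turn.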

Additional observations from a re-analysis of the deposited data

Results flagged for a closer look

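The effect of IUHG differed between groups for 7 imprinted genes by the test of the difference itself (limma interaction, adjusted p under 0.01). Over all tested genes 3.2% differed between the sexes at E13.5 and 8.29% between the stages in males, and the numbers of imprinted genes tested are given above. Between the sexes at E13.5 the effect was 5.19 larger in males for *Phlda2* and 2.53 larger for *Slc22a18* on the log2 scale. In both genes the male IUHG libraries lay above all male controls. In males, the effect at E16.5 minus that at E13.5 was -6.18 for *Phlda2*, -2.63 for *Slc22a18*, -0.83 for *Gnas*, -0.57 for *Slc38a4*, -0.91 for *Dio3*, 1.22 for *Nnat* and 0.32 for *Nap1l4*. *Dio3* was at 3.54 and 4.02 TPM in control and IUHG males at E13.5 and at 6.96 and 3.65 TPM at E16.5. *Nap1l4* was at 237 and 217 TPM and at 164 and 189 TPM. In males the interaction was no longer a call in 15 of 19 alternatives for *Nap1l4* (adjusted p up to 0.582), 11 for *Nnat* (up to 0.164), 10 for *Dio3* (up to 0.592) and 2 for *Slc38a4* (up to 0.335), and leaving out a library gave 3 to 6 genes. The E13.5 male IUHG libraries enter both sets of differences, and the levels of Y-linked genes, *Stra8* and *Nanos2* in them are given above.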

How the results depend on the processing

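The PGC calls with the highest margins were kept by all alternatives run, namely *Phlda2* (6.05 to 6.47 on the log2 scale), *Slc22a18* (2.06 to 2.78) and *Slc38a4* (1.10 to 1.22) in E13.5 males. Of 940 recomputed values of 69 named differences, 925 had the same direction. The 15 reversals were in 8 differences, all near 0, and all but that of *H19* in gonads with median-of-ratios scaling (-0.0067) came with a library left out. *H19* ranged from -0.033 to 0.043 in gonads (-0.0046 without control replicate 1) and from -0.072 to 0.17 at E12.5 (-0.0024 without IUHG replicate 3). *Zdbf2* ranged from -0.19 to 0.066 in gonads, from -0.053 to 0.11 in E13.5 males and from -0.16 to 0.075 in E16.5 males (0.066 and 0.0062 in the other reversals). *Dlk1* ranged from -0.38 to 0.14 in E16.5 females and from -0.14 to 0.093 in E16.5 males (0.0051 and 0.050 in the other reversals), and *Meg3* from -0.24 to 0.0054 in E16.5 males.

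Counts of called imprinted genes moved by over 1.5 times as follows. The share of all genes called was not counted for the alternatives, so these counts have no background. Without the filter on low values, more genes are tested, and the count fell from 1 to 0 in gonads, 5 to 3 in E13.5 males, 1 to 0 in E16.5 females, 13 to 8 between the sexes at E13.5 and 7 to 4 for the stage interaction in males. FPKM gave 8 between the sexes at E13.5. The pseudocount of 0.1 and median-of-ratios scaling gave 0 in E16.5 females, and that scaling gave 4 for the sex interaction at E13.5. It also shifted the median log2 fold change over all genes from 0.14 to -0.01 in E13.5 females with IUHG, from 0.31 to 0.07 with stage in females, and from -0.28 to 0.03 and 0.10 to 0.39 between the sexes. The unadjusted p gave 3 calls at E12.5, 4 in E13.5 females, 2 in E16.5 females, and 5 each for the sex interactions at E13.5 and E16.5 and the stage interaction in females. All 30 libraries in a single fit gave 5 in E13.5 females, 3 in E16.5 females, and 4, 2, 6 and 3 for the interactions (sex at E13.5, sex at E16.5, stage in females and in males). Beyond their construction, the cause of these shifts was not tested.

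Replicate numbers did not pair the libraries (correlations of deviations -0.0846 to 0.126, over 0.1 for every pair in 0 of 6 comparisons, and no comparison in which each library correlated best with its own number). With the replicate block the counts were 3 in E13.5 females, 0 in E16.5 females and 1 for the stage interaction in females, and within 1.5 times of the others.

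Leaving out each library in turn gave 0 to 1 calls in gonads, 0 to 1 at E12.5 (*Phlda2* without IUHG replicate 3), 0 to 4 in E13.5 females (4 without IUHG replicate 3), 5 to 5 in E13.5 males, 0 to 0 in E16.5 females and 0 to 0 in E16.5 males. It gave 14 to 19 and 22 to 26 with stage in females and males, 9 to 14 and 21 to 28 between the sexes at E13.5 and E16.5, 2 to 5 and 0 to 1 for the sex interactions, and 0 to 2 and 3 to 6 for the stage interactions. The highest count of the sex interaction at E13.5 and of the stage interaction in females came without E13.5 female IUHG replicate 3, the lowest of the stage interaction in males without E16.5 male IUHG replicate 2, and the sex interaction at E16.5 gained 1 call without E16.5 female control replicate 1, IUHG replicate 1 or IUHG replicate 2.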
